A study of Mus musculus with 24 samples.

Results

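The 45 genes described here encode the machinery that copies DNA in S phase, the part of the cell cycle in which the genome is duplicated. They were chosen by name for their role in replication. A gene was taken to be on the array where the transcript accession of a probe mapped to its symbol in RefSeq (assembly GRCm38.p6), and this held for 45 of 45 genes with 64 probes, among 23787 named genes in all. All 64 probes passed the filter on dim signals, and the probe with the highest mean stood for its gene. That probe was well above background on 24 of 24 arrays for every member.

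Replication starts at origins, which the origin recognition complex marks and where Cdc6 and Cdt1 load the MCM helicase. The kinase of Cdc7 and Dbf4, with Cdc45, Mcm10 and the GINS complex, turns the loaded helicase into an active fork. Polymerases alpha, delta and epsilon, the sliding clamp PCNA and its loader RFC then build the new strands, with ribonucleotide reductase and thymidylate synthase supplying nucleotides. Many of these genes are known targets of E2F transcription factors, which raise them as cells enter S phase, so their transcripts mark dividing cells.

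The cells were TM3, an established line of mouse Leydig cells, the cells of the testis that make testosterone. All samples, controls included, were detached, washed, suspended in annexin binding buffer, strained and placed in electroporation cuvettes. The nsPEF groups received 80 pulses of 60 ns at 14 kV/cm (a nanosecond pulsed electric field), and the sham groups received none. RNA was taken at 0, 4 and 24 h after treatment, which gave 6 groups of 4 biological replicates, each measured on a single-colour array. No untreated adherent culture was among the samples, so a change over time in sham-exposed cells holds the handling as well as the time. Levels are given as log2 of the processed signal minus the 75th percentile of the same array, and levels of different genes cannot be set against each other. The 75th percentile was a signal of 202 to 533, and 51.4 to 62.2% of probes were well above background. Each time point had a slide of its own with 8 arrays, sham in one row and nsPEF in the other, so that neither time and slide nor treatment and row can be told apart. Of 9 Leydig markers, Star, Cyp17a1, Scarb1 and Nr5a1 were well above background on 24 arrays, Cyp11a1, Hsd3b1, Hsd3b6 and Lhcgr on 0, and Insl3 had no named probe. Of 13 markers of Sertoli, germ, immune and endothelial cells, Sox9, Csf1r, Cd68 and Pecam1 were well above background on 24 arrays and Ddx4 on 16, and their part in the results was not tested. In bulk RNA, fewer cycling cells and less of a transcript in each cycling cell cannot be told apart.

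The first comparison asked how the replication genes moved in sham-exposed cells between 0 and 4 h. Of the 45 members, 38 fell, 3 rose and 4 did not pass the threshold of an adjusted p of 0.05 in limma. The background was near even, with 29.7% of 37684 tested probes called lower and 29.4% called higher. The median difference of the members was -0.60 on the log2 scale, against -0.01 for all tested probes. The same step in nsPEF-exposed cells, on other arrays, gave 39 members lower and 3 higher, against 27.8% and 33.5% of all probes, with a median of -0.65 against 0.09. The 38 members called lower in sham were among the 39 called lower in nsPEF, the remaining gene being Cdc7. In sham, all 4 arrays at 4 h lay below all 4 at 0 h for 38 members and above them for 2, as they did for 28.1% and 29.2% of all tested probes.

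**Figure D1:**
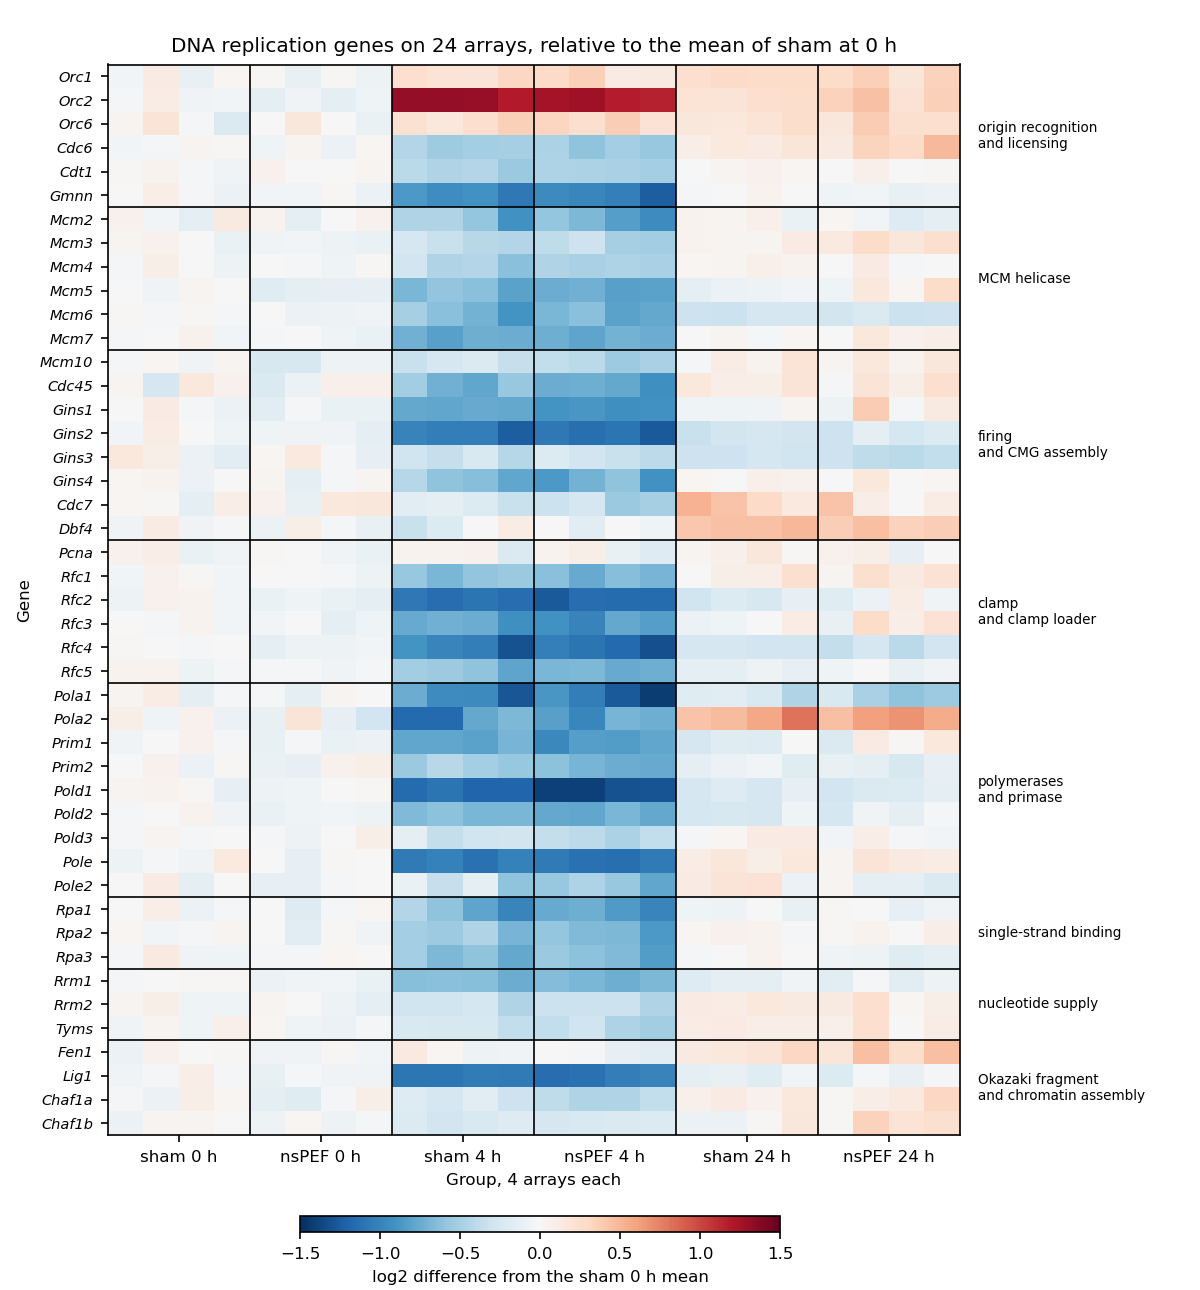
Heat map of the 45 replication genes (rows, by role) on the 24 arrays (columns, 4 per group), coloured by the log2 difference from the gene's mean over the 4 sham arrays at 0 h. Most rows are blue at 4 h in both treatments and near white again at 24 h, while Orc2 is red at 4 h.

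The polymerases and primase had the lowest median of the 8 roles, at -0.77. Pold1, the catalytic subunit of DNA polymerase delta, which copies the lagging strand, had sham levels of 4.16, 4.16, 4.13 and 3.99 at 0 h and of 2.96, 3.02, 2.92 and 2.92 at 4 h. The groups were far apart, and the difference was -1.16 ± 0.05 (SE), or 2.23-fold lower, with an adjusted p of 4.45e-14. Pole, the catalytic subunit of polymerase epsilon on the leading strand, went from 3.45, 3.50, 3.48 and 3.67 to 2.47, 2.51, 2.41 and 2.51. Pola1, the catalytic subunit of polymerase alpha, fell by 0.98 and its partner Pola2 fell by 0.94. The primase subunits Prim1 and Prim2, which lay the RNA primers, fell by 0.77 and 0.52. Of the accessory subunits, Pold2 fell by 0.66, Pole2 by 0.30 and Pold3 by 0.27. All 9 genes of this role were called lower in sham and all 9 in nsPEF.

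All 5 subunits of the clamp loader fell, and the clamp itself had no call. Rfc2, a small subunit of the loader, had sham levels of 4.13, 4.26, 4.26 and 4.17 at 0 h and of 3.13, 3.07, 3.10 and 3.06 at 4 h. This was a difference of -1.12 ± 0.05 (SE), 2.17-fold lower with an adjusted p of 4.26e-13. Rfc4 fell by 1.06, Rfc3 by 0.78, Rfc5 by 0.61 and Rfc1, the large subunit, by 0.60. Pcna, the ring that holds polymerases on DNA, had levels of 6.31, 6.35, 6.15 and 6.20 at 0 h and of 6.31, 6.30, 6.32 and 6.03 at 4 h, which overlap. Its difference was -0.01 ± 0.07 (SE), with an adjusted p of 0.900, and it was the single member of 45 without a call in the test of time over both treatments, where 44 members and 80.2% of all probes passed.

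The helicase and the factors that activate it fell by smaller amounts, with 1 large fall. All 6 subunits of the MCM helicase were called lower, from Mcm3 at -0.36 to Mcm7 at -0.75, with Mcm5 and Mcm6 at -0.68, Mcm2 at -0.60 and Mcm4 at -0.45. Gins2, a subunit of the GINS complex that joins Cdc45 to the helicase, had sham levels of 3.48, 3.62, 3.51 and 3.45 at 0 h and of 2.51, 2.48, 2.48 and 2.28 at 4 h. Its groups did not overlap, and its difference was -1.08 ± 0.06 (SE), 2.11-fold lower with an adjusted p of 1.21e-12. The other GINS subunits fell by 0.77 (Gins1), 0.62 (Gins4) and 0.32 (Gins3). Cdc45 fell by 0.64 and Mcm10, which binds the helicase at activation, fell by 0.29. Neither subunit of the Dbf4-dependent kinase passed the test in sham, Cdc7 with a difference of -0.21 and an adjusted p of 0.071 and Dbf4, its activator, with -0.10. A second probe of Cdc7 was called lower at -0.33, with an adjusted p of 0.0149. That probe was far dimmer, with a mean level of -3.12 over all arrays against 2.74 for the main probe. In nsPEF the call changed sides, since the main probe was called lower at -0.48 and the second, at -0.12, was not.

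Of the genes of origin recognition and licensing, 3 fell and 3 rose. Cdc6 fell by 0.49 and Cdt1 by 0.46, and Gmnn (geminin, the inhibitor of Cdt1) fell by 0.95. Orc1, Orc2 and Orc6, subunits of the origin recognition complex, were the 3 members called higher. Orc2 had sham levels of 1.73, 1.85, 1.69 and 1.70 at 0 h and of 3.06, 3.06, 3.05 and 2.93 at 4 h. The difference was 1.28 ± 0.05 (SE), 2.43-fold higher with an adjusted p of 1.77e-14, and a second probe gave 0.99. The rises of Orc1 and Orc6 were small. Orc1 had levels of 0.95, 1.12, 0.88 and 1.02 at 0 h and of 1.24, 1.19, 1.18 and 1.31 at 4 h, a difference of 0.24 ± 0.06 (SE) with an adjusted p of 0.00183. Orc6 had levels of 4.74, 4.89, 4.67 and 4.48 at 0 h and of 4.93, 4.85, 4.94 and 5.05 at 4 h, a difference of 0.25 ± 0.07 (SE) with an adjusted p of 0.00688, and its groups overlapped. Both passed the test in the same direction in nsPEF-exposed cells by their main probes, while a second probe of Orc1 was called in sham (0.29) and not in nsPEF (0.10). The calls of the main probes in sham were lost with the 75th percentile taken over probes detected on all arrays (adjusted p of 0.0547 for Orc1 and 0.133 for Orc6), and that of Orc6 also under quantile normalization and without replicate 3 or 4.

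The remaining roles also moved down. The subunits of RPA, which coats single-stranded DNA, fell by 0.71 (Rpa1), 0.64 (Rpa3) and 0.55 (Rpa2). Of the genes of nucleotide supply, Rrm1 fell by 0.66, Rrm2 by 0.33 and Tyms by 0.27. Lig1, the ligase that seals Okazaki fragments, fell by 1.07, while Fen1, the nuclease that trims their flaps, had a difference of 0.01. Chaf1a and Chaf1b, which place histones on new DNA, each fell by 0.23.

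**Figure D2:**
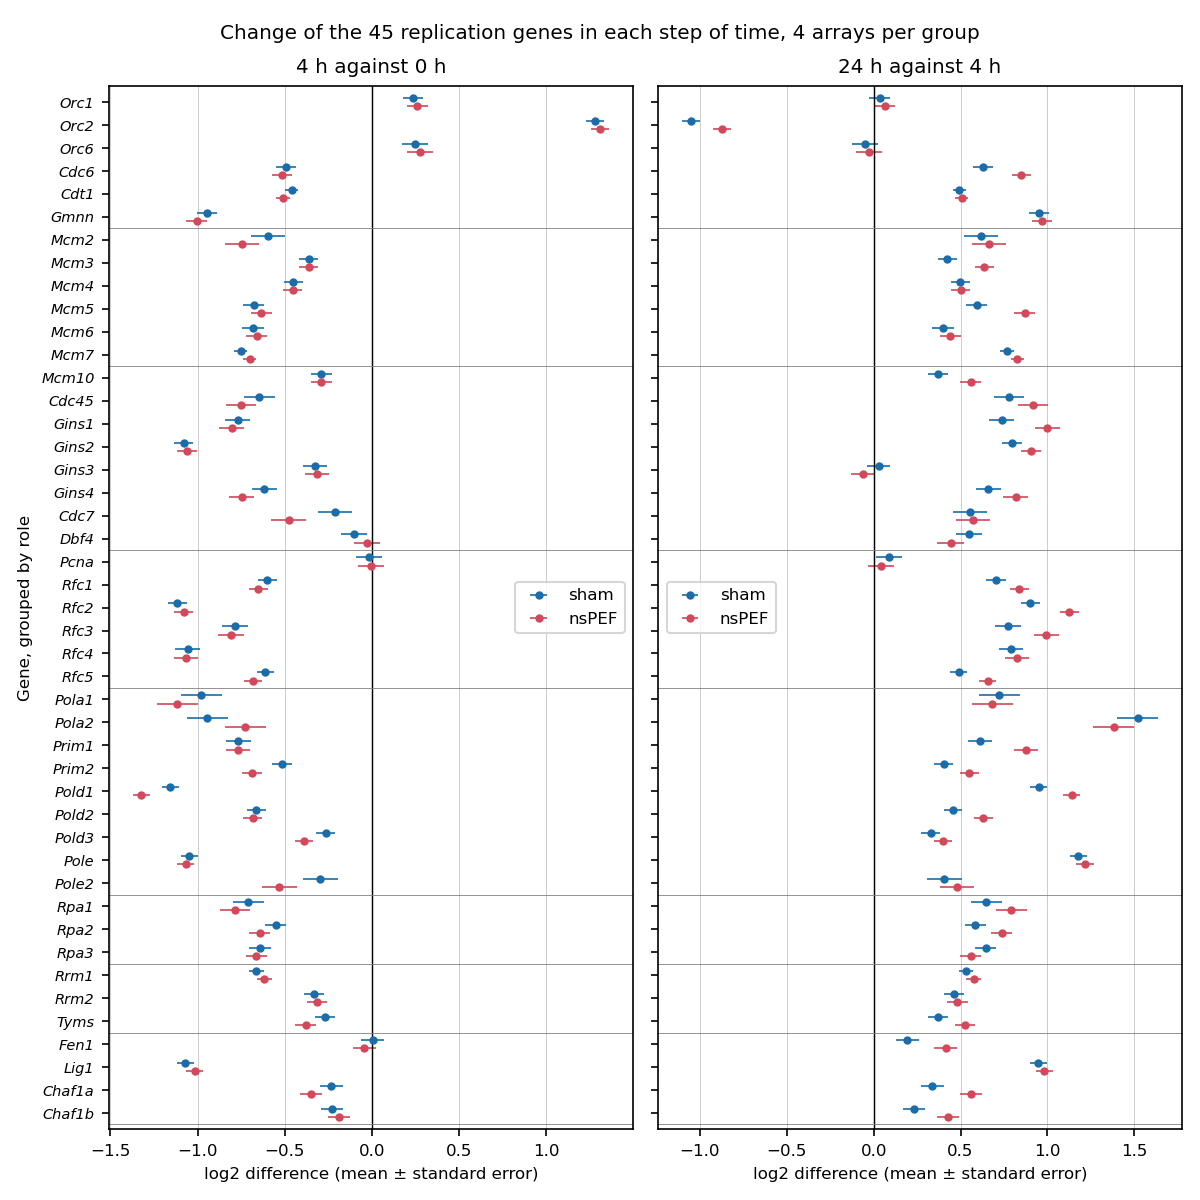
Log2 difference of each replication gene (rows, by role) at 4 h against 0 h (left) and at 24 h against 4 h (right), with standard errors, in sham (blue) and nsPEF (red), 4 arrays per group. Most genes lie left of 0 in the first step and right of 0 in the second, and Orc2 is mirrored.

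Promoter sequence was read for what the members share beyond the arrays. RefSeq windows of GRCm38.p6, from 250 bases before to 50 after a transcript start, were given for 37 of the 45 members, and Rfc2, Gins2, Pole, Gmnn, Gins1, Gins4, Prim2 and Mcm4 had none. The E2F motif was searched on both strands as TTTGGCGC, TTTGGCGG, TTTCGCGC, TTTCGCGG, TTTCCCGC or TTTCCCGG, and the CCAAT box, known as the site of NF-Y, as CCAAT. At least 1 of the 6 E2F words stood in a window of 17 members (45.9% of 37), against 4.34% of 27025 genes with a window. A CCAAT box stood in a window of 23 members (62.2%), against 41.1% of those genes. Of 26 mitosis genes with a window, 7.69% held an E2F word and 80.8% a CCAAT box. Among the members with a window, 9 of the 18 with the larger falls in sham held an E2F word, and 8 of the other 19. Of 25 E2F matches 4 overlapped another E2F match, in 2 windows, and 1 overlapped a CCAAT box. The windows below are those of Pold1, which fell most, and of Lig1, the next in order of fall with a window. Those of Mcm6, whose window held the most E2F matches, and of Orc2, which rose most, are also given. The window of Rfc4, the next after Lig1 in order of fall, held 0 E2F words and 0 CCAAT boxes and is not shown. Capitals mark E2F words and CCAAT boxes on either strand, and each is written 5' to 3' along the gene.
Pold1 (chr7:44548766-44549065, minus strand): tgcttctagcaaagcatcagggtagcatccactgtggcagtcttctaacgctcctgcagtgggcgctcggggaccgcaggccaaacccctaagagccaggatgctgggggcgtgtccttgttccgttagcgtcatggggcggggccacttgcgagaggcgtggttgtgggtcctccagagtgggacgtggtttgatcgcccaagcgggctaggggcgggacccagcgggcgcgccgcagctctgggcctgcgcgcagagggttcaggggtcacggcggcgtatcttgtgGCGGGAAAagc
Lig1 (chr7:13278576-13278875, plus strand): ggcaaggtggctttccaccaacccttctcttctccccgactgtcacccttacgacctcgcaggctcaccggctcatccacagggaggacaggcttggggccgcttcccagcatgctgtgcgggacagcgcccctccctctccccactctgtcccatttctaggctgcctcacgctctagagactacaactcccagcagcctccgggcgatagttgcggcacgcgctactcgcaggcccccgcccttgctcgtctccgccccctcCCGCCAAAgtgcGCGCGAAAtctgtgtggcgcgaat
Mcm6 (chr1:128359656-128359955, minus strand): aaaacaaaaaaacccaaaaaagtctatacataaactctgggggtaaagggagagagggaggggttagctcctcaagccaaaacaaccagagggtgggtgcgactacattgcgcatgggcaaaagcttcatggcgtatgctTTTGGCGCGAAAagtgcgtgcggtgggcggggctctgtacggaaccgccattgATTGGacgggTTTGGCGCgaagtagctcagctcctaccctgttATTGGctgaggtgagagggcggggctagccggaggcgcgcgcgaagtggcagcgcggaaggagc
Orc2 (chr1:58505060-58505359, minus strand): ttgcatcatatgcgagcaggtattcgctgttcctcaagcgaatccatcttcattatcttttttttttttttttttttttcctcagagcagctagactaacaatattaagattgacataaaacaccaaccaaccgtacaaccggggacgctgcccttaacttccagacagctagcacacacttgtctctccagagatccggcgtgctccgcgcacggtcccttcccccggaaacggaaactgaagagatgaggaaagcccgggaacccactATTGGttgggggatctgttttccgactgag
Pold1 held 1 E2F word, 39 bases after the start, and no CCAAT box. Lig1 held 2 E2F words in the window shown and none in its other 2 windows. Mcm6 held 3 E2F words, of which 2 overlapped (110 and 106 bases before the start), and CCAAT boxes 57 and 14 bases before the start. Orc2 held 1 CCAAT box in each of its 2 windows and no E2F word. A match is a run of letters and was not tested for binding.

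The second comparison followed the genes from 4 to 24 h, and it shares the 4 h arrays with the first, so a low value there enters both. In sham 40 members rose and 1 fell, against 27.8% of all probes called higher and 29.9% called lower, and the median difference was 0.55 against 0.01 for all probes. In nsPEF 40 rose and 1 fell, against 27.5% and 29%, with a median of 0.64 against -0.03. The genes that rose were the same 40 in both treatments. Members called lower at 4 h and then higher at 24 h numbered 37 in sham and 38 in nsPEF, and 37 did so in both. The shares of all probes that fell and then rose, or had the same call in both treatments, were not counted.

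The largest rise was that of Pola2, which had sham levels of -1.59, -1.59, -1.20 and -1.10 at 4 h and of 0.00, 0.05, 0.16 and 0.39 at 24 h. All arrays at 24 h lay above those at 4 h, and the difference was 1.52 ± 0.12 (SE), 2.87-fold higher with an adjusted p of 8.38e-10. Pole rose by 1.18 ± 0.05 (SE) to 3.63, 3.70, 3.61 and 3.68, with an adjusted p of 9.11e-14. Gmnn went from 4.22, 4.15, 4.18 and 4.01 to 5.06, 5.08, 5.13 and 5.08, a rise of 0.95 ± 0.06 (SE) with an adjusted p of 2.08e-11. Dbf4, Cdc7 and Fen1, without a call in the first step in sham, were called higher here at 0.55, 0.55 and 0.19.

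A few members were not called in the second step. Gins3 had sham levels of 5.98, 5.91, 5.73 and 5.66 at 0 h, of 5.53, 5.47, 5.60 and 5.40 at 4 h and of 5.52, 5.51, 5.55 and 5.52 at 24 h. It fell by 0.32 in the first step, and in the second its difference was 0.03 ± 0.07 (SE) with an adjusted p of 0.762. This depended on the scaling. Gins3 was called higher under spike-in scaling (0.70), quantile normalization (0.26) and the percentile over probes detected on all arrays (0.19). It was also called higher with centring by spot row and signal (0.15). That scaling centred values within 8 bands of spot rows inside each array, not slide rows, and 5 classes of mean signal. Orc1 and Orc6 had differences of 0.03 and -0.05 in sham that did not pass the test, but Orc6 was called higher under spike-in scaling (0.62) and quantile normalization (0.19). A second probe of Orc1 was called higher in nsPEF at 0.23, where the main probe gave 0.07 without a call. Orc2 fell by 1.05 ± 0.05 (SE) to 1.95, 1.94, 1.99 and 2.01, with an adjusted p of 5.88e-13. It was the single member called lower in either treatment.

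**Figure D3:**
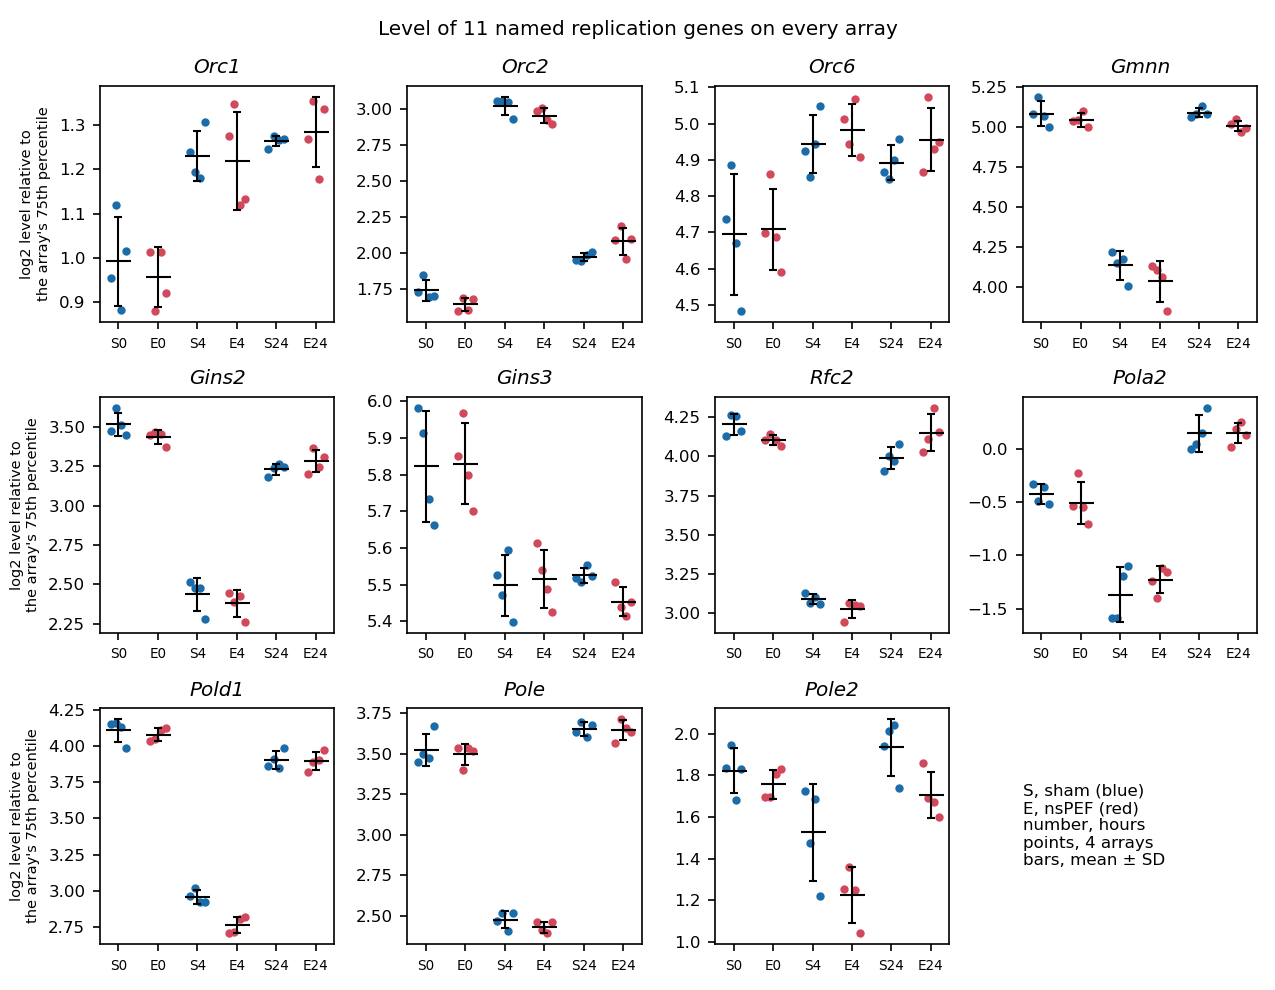
Log2 level of 11 replication genes on each of the 24 arrays, relative to the array's 75th percentile, with the mean and SD of the 4 arrays of a group (S, sham, blue; E, nsPEF, red; hours after treatment). Pold1, Rfc2, Gins2, Pole and Gmnn dip at 4 h, Orc2 peaks there, and Gins3 falls and stays low.

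At 24 h against 0 h the calls split evenly in sham and were more often higher in nsPEF, and the split in sham depended on the scaling. In sham 8 were called higher and 8 lower, against 16.9% and 19.7% of all probes, and 29 had no call. The higher members were Pola2 (0.57), Dbf4 (0.45), Cdc7 (0.34), Orc1 (0.27), Orc2 (0.23), Fen1 and Orc6 (both 0.20) and Pole (0.13). The lower members were Gins3 (-0.30), Mcm6 and Gins2 (both -0.28), Rfc4 (-0.27), Rfc2 (-0.22), Pold1 and Pold2 (both -0.21) and Rrm1 (-0.13), and under scaling to the spike-in RNA all 8 turned higher. In nsPEF 18 were called higher and 6 lower, against 23.9% and 18.3% of all probes, with a median of 0.09 against 0.06. The members called higher in both treatments were Dbf4, Fen1, Orc1, Orc2, Orc6, Pola2 and Pole, and those called lower in both were Gins2, Gins3, Mcm6, Pold1 and Rfc4, and spike-in scaling turned the sign of these 5 in both treatments. The value of Orc2 depended on its probe, since the second probe was called lower at -0.54 in sham. Spike-in scaling shifted the median of all probes to 0.73 in sham and called 45 members higher, with a median of 0.76. Quantile normalization called 18 higher and 3 lower, and centring by spot row and signal 20 and 3. A percentile over probes detected on all arrays called 13 and 7, and normexp 9 and 6. Without replicate 3 of every group the calls fell to 9 in sham and 10 in nsPEF. The shares of all probes called under these alternatives are not given here, so the shifts need not be particular to the members.

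The directions of the first 2 steps did not depend on the scaling. Under the 6 other scalings and sources of values, no member called at 4 h against 0 h or at 24 h against 4 h changed sign in either treatment. The members called lower at 4 h numbered 36 to 40 in sham and 37 to 41 in nsPEF. Those called higher at 24 h against 4 h in sham numbered 39 to 44. The shares of all probes called under these scalings are not given here. Of 19 further probes for 18 of the members, 19 had the sign of the main probe at 4 h against 0 h in sham and 18 at 24 h against 4 h.

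Other genes of the pathway moved in the same direction less uniformly. Of 42 further replication genes, 27 fell and 6 rose at 4 h in sham, with a median of -0.36. Over all tested probes 29.7% were called lower and 29.4% higher in this step, with a median of -0.01. Tk1, the salvage kinase for thymidine, fell by 1.51, Dscc1, of an alternative clamp loader, by 1.35, and Timeless, a fork protection factor, by 1.11. Top1, the topoisomerase that relaxes DNA, rose by 0.83, Orc4, another subunit of the origin recognition complex, by 0.68 and Dna2, a flap nuclease, by 0.66, while Orc3 fell by 0.79. Of 15 regulators of E2F and of entry into S phase, 7 fell and 3 rose, beside the same 29.7% and 29.4% of all probes. Their median was -0.16. E2f1, an activator of replication genes, fell by 1.11 and Rbl2, a repressor related to Rb1, fell by 2.19, while Cdc25a and Ccne1, which drive Cdk2, rose by 0.84 and 0.40. Of 30 mitosis genes, 29 fell and 0 rose, with a median of -0.59. At 24 h against 0 h in sham 15 mitosis genes were lower and 3 higher, with a median of -0.14 against 0.03 for the replication members. Of all probes 19.7% were called lower and 16.9% higher there.

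**Figure D4:**
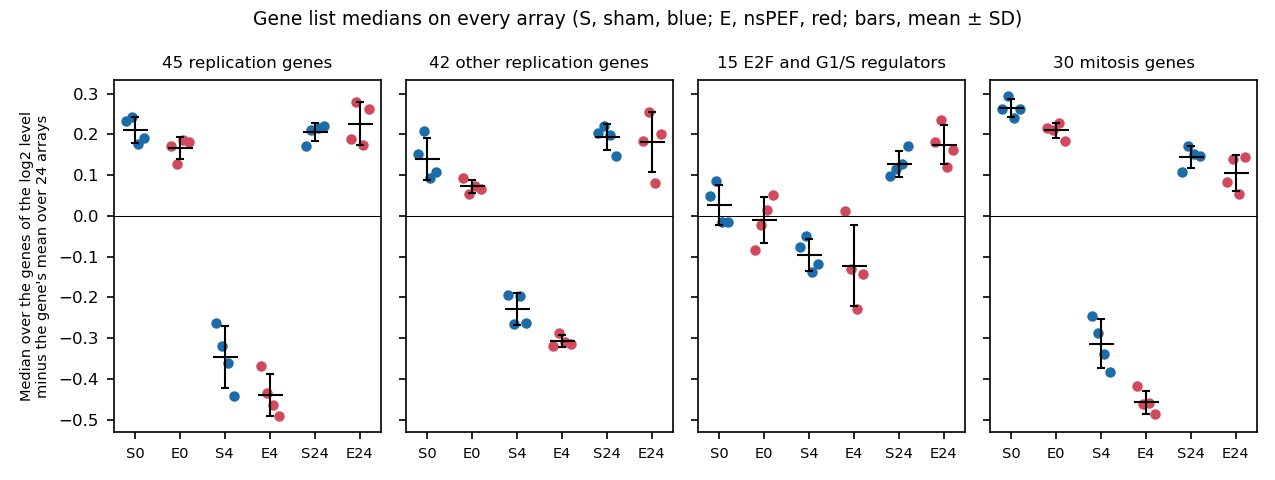
Median over each gene list of the log2 level minus the gene's own mean over 24 arrays, for every array (S, sham, blue; E, nsPEF, red; hours; bars, mean and SD of 4 arrays). The replication members drop from 0.211 at 0 h to -0.346 at 4 h in sham and return to 0.205 at 24 h, and mitosis genes follow with a lower value at 24 h.

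The third comparison asked whether nsPEF changed the replication genes beyond sham at the same time. The arrays of the treatments also differed in quality marks, whose part in the results was not tested. Spots marked as not uniform numbered 36 to 81 in sham and 62 to 138 in nsPEF at 0 h, 52 to 73 and 180 to 347 at 4 h, and 71 to 112 and 282 to 443 at 24 h. The share of probes well above background was lower on every nsPEF array than on every sham array of the same time, at 51.4 to 57.5% against 57.6 to 62.2% over all times. At 0 h no member was called in limma or in the plain analysis of variance, and 0.0716% and 0.0557% of all probes were called higher and lower. An unadjusted p under 0.05 was found for 2 members, and the share of all probes under that threshold was not counted. Differences ran from -0.16 (Mcm10) to 0.07 (Cdc7), and 41 of 45 were negative with a median of -0.04, near the -0.03 of all probes. Mcm10 had levels of 3.53, 3.58, 3.49 and 3.58 in sham and of 3.30, 3.31, 3.47 and 3.47 in nsPEF, which do not overlap, with an adjusted p of 0.299.

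At 4 h 1 member was called lower and 0 higher, against 1.6% and 1.71% of all probes. It was Pold1, with nsPEF levels of 2.71, 2.72, 2.80 and 2.81 against sham levels of 2.96, 3.02, 2.92 and 2.92. The groups did not overlap, and the difference was -0.20 ± 0.05 (SE), with an adjusted p of 0.0328. Pold1 lost its call under quantile normalization (adjusted p of 0.0707), in a fit to the 8 arrays of 4 h, and without any of 6 single arrays (sham or nsPEF replicates 1, 2 or 3 at 4 h), and spike-in scaling gave 0.00. It was also lost (adjusted p of 0.0818) with the replicate number within each time point as a block, a fit added after the data were seen. Under spike-in scaling, which raised the median of all probes to 0.20, Mcm7 was the 1 member called, higher at 0.20 with an adjusted p of 0.0371. Differences of the 45 members ran from -0.30 to 0.14, 39 were negative, and the median was -0.08 against 0.00 for all probes. For the 42 further replication genes 2 were called lower (Top2a and Dck), and for the mitosis genes 3, with a median of -0.13. Without replicate 4 of sham at 4 h, the array with the brightest 75th percentile, 3 members were called lower (Pold1, Pole2 and Rfc5). The share of all probes called is not given here for that fit or for spike-in scaling. A second probe of Orc1 was called lower at -0.31, with an adjusted p of 0.0351, where the main probe gave -0.01.

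At 24 h no member was called, against 2.64% and 2.18% of all probes called higher and lower. An unadjusted p under 0.05 was found for 9 members, and the share of all probes under that threshold was not counted. The smallest adjusted p was 0.0719, for Chaf1b at 0.20 ± 0.06 (SE). The plain analysis of variance also gave 0. Without replicate 1 of nsPEF at 24 h, 5 members were called higher, namely Cdc6 (0.24), Chaf1b (0.26), Mcm5 (0.23), Prim1 (0.25) and Rfc2 (0.20). The share of all probes called in that fit is not given here. The median difference was 0.01, against 0.02 for all probes.

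Over all times 1 member was called lower and 0 higher, against 4.44% and 4.39% of all probes. Pole2, an accessory subunit of polymerase epsilon, had sham levels of 1.83, 1.95, 1.68 and 1.83 at 0 h, of 1.73, 1.47, 1.69 and 1.22 at 4 h and of 1.94, 2.01, 2.04 and 1.74 at 24 h. In nsPEF it had 1.70, 1.70, 1.81 and 1.83, then 1.25, 1.36, 1.25 and 1.04, then 1.86, 1.69, 1.67 and 1.60. The groups overlapped at each time, and the difference over all times was -0.20 ± 0.06 (SE), with an adjusted p of 0.0381. When each of the 24 arrays was left out in turn the call was lost for 15 of them. It was also lost under spike-in scaling, where the difference was -0.10. The 3 calls under that scaling were of other members and higher (Chaf1b 0.16, Cdc6 0.14 and Mcm7 0.11). The share of all probes called under it is not given here.

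The change over time was set between the treatments directly. No member passed the interaction of treatment and time, with 9 at an unadjusted p under 0.05 and 0.377% of all probes called. Without replicate 1 of nsPEF at 24 h, 4 (Cdc6, Mcm5, Prim1 and Rfc2) passed, and the share of all probes in that fit is not given here. The difference between 24 and 4 h was more positive in nsPEF than in sham for 39 of 45 members, Orc2 with its smaller fall among them, and for 36 of the 40 that rose in both. The members share arrays, so these are not counts of independent observations, and the share of all probes with that sign was not counted. The median over the 45 was 0.11 against 0.01 for all probes, and none passed the test of that difference (smallest adjusted p of 0.134, for Mcm5, and 15 at an unadjusted p under 0.05). For the first step 28 differences were negative and 17 positive, with a median of -0.02, and none passed. Standard errors of a difference between groups of 4 arrays were 0.04 to 0.12 for the members. Between 0 and 4 h in sham 27 of 45 members differed by more than 0.5, and between nsPEF and sham at a time point 0 of 45 did. The shares of all probes with differences of that size, or with an unadjusted p under 0.05, were not counted, so neither count need be particular to the members.

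**Figure D5:**
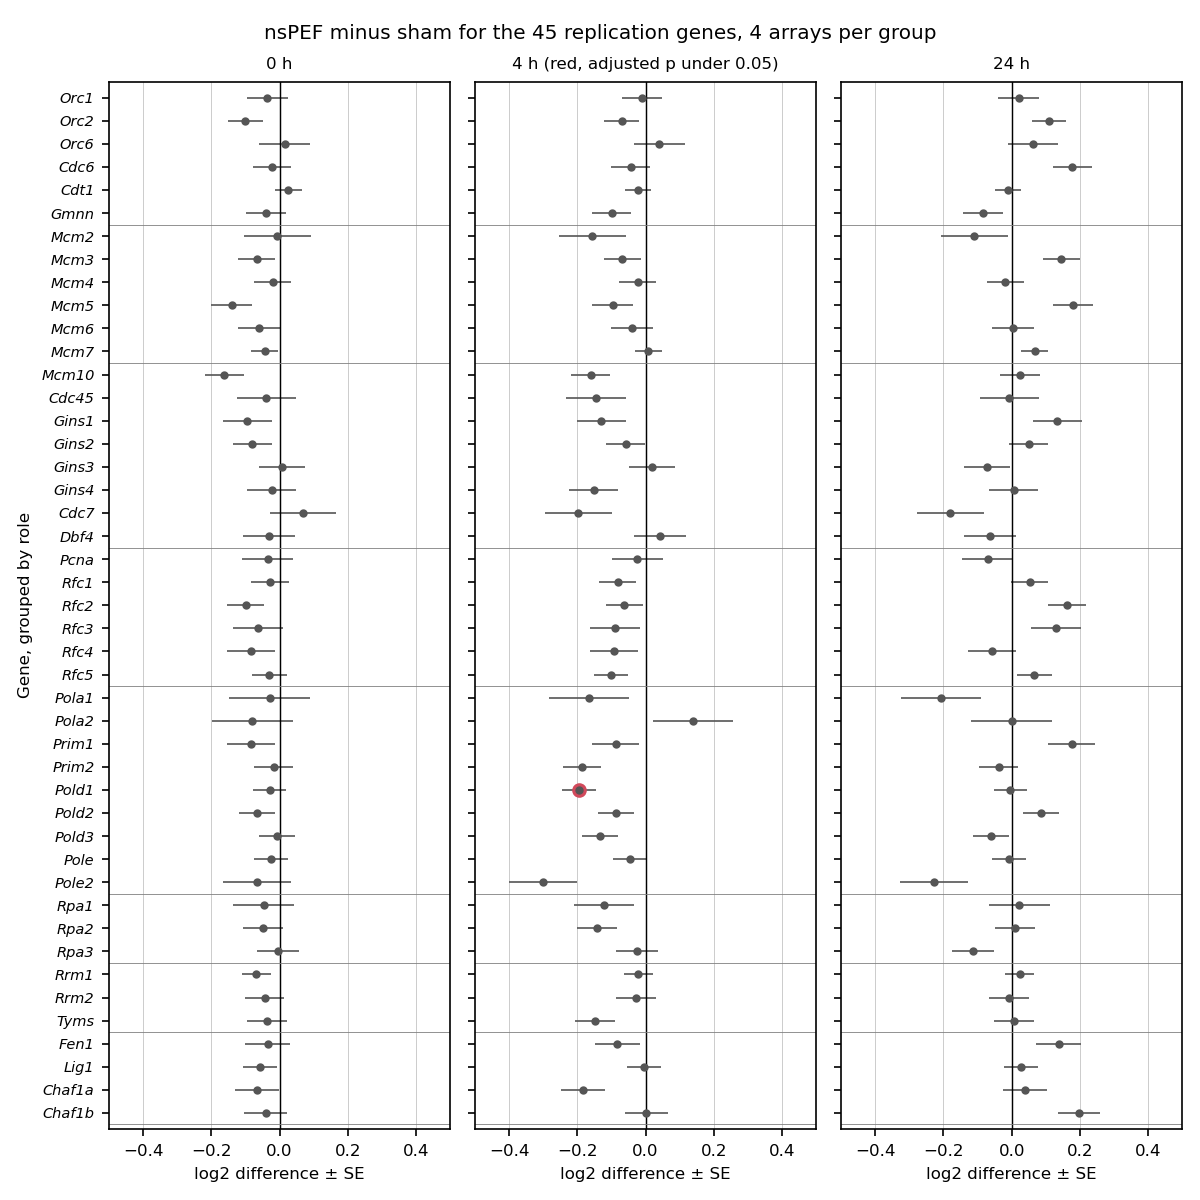
Log2 difference of nsPEF minus sham for each replication gene (rows, by role) at 0, 4 and 24 h, with standard errors, 4 arrays per group. Values lie between -0.30 and 0.20, and the single red point is Pold1 at 4 h.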

How the data were processed

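RNA of TM3 cells (RIN 8.9 to 10 in the study's methods) was measured on 24 single-colour Agilent arrays, 4 biological replicates in each of 6 groups. The deposited intensity values were processed signals, which the authors extracted with Agilent Feature Extraction (12.0 in the submitters' processing notes) with background subtraction, and the authors' series table held log2 values normalized in GeneSpring. Each array held 62976 spots, of which 3671 control spots were left out, and 59305 spots gave 56605 probes, of which 34566 were named by transcript accession from RefSeq (GRCm38.p6). Each array's log2 intensity was centred on its 75th percentile, and 37684 probes well above background on at least 2 of 4 arrays of a group were tested. Groups were fitted together in limma 3.58.1 (R 4.3.3), with treatment, time and their interaction, at a Benjamini-Hochberg adjusted p of 0.05 over all tested probes. The probe of highest mean stood for a gene. Array values were given for the 3 members of largest fall and the 3 of largest rise or smallest fall in each of the first steps in sham, and for members called between treatments, by rule. Pcna, Mcm10 and the window of Mcm6 were added after their values were seen. The members and lists were chosen with earlier results of these data known. The scripts were tested on simulated data, drawn from the tested probes and not from the members alone. Between nsPEF and sham at 4 h, 15.2% of simulated differences of -0.25 and 18.2% of those of 0.25 were recovered. For differences of -0.5 and 0.5 the shares were 38.2% and 48.5%. Alternatives were other scalings, background correction, filters, probe rules, fits and leaving out replicates. The number of arrays limits precision.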

Additional observations from a re-analysis of the deposited data

Results flagged for a closer look

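In 270 sets of 4 arrays (45 genes in 6 groups), the highest or lowest array of 15 sets (5.56%) stood apart by a gap larger than the 95% critical share of the set's range in Dixon's test. Chance gives about 1 in 20 such sets. Of the 15, 6 were low values on sham replicate 4 at 4 h. These were Orc2 (gap of 0.9445 of the range, level 2.93), Pcna (0.9373, level 6.03), Tyms (0.9305, level 4.52), Rrm1 (0.914, level 4.18), Gins2 (0.8487, level 2.28) and Rfc3 (0.8447, level 3.29). In nsPEF at 4 h they were Rrm2 (0.9651) and Cdc45 (0.8301) on replicate 4 and Rfc2 (0.8423) on replicate 1, all low. At 24 h the values were high, for Pold2 (0.9111) and Gins1 (0.8905) on sham replicate 4 and for Pold3 (0.888) and Mcm4 (0.8419) on nsPEF replicate 2. At 0 h Pole was low on nsPEF replicate 2 (0.8542) and Rpa3 high on sham replicate 2 (0.847).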

How the results depend on the processing

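The number of members called at 4 h against 0 h and at 24 h against 4 h stayed between 39 and 45 of 45 in both treatments under all alternatives run. The cause of the changes that follow was not tested. These counts stand without the share of all probes called under the same alternative, so a change in them need not be particular to the members. At 24 h against 0 h, sham had 16 calls, 45 under spike-in scaling and 9 to 16 with replicates left out, and nsPEF had 24, 43 under spike-in scaling and 10 to 24 with replicates left out. Between nsPEF and sham at 4 h, 1 call became 0 under quantile normalization, with the percentile over probes detected on all arrays and with only the 8 arrays of that time, 2 with marked spots kept or probes averaged per gene, 3 with normexp, a floor or no filter, 4 in the series table, and 0 to 3 with replicates left out, while under spike-in scaling the 1 call was another member and higher. At 24 h, 0 calls became 1 under quantile normalization, the detected-probe percentile, no filter and centring by spot row and signal. They became 3 with a floor, and 0 to 5 with replicates left out. Over all times, 1 call became 0 with the detected-probe percentile and with centring by spot row and signal. It became 2 with a floor or no filter, and 3 with spike-in scaling (all higher, against 1 lower). It became 4 with normexp, marked spots kept or probes averaged per gene, 8 in the series table, and 0 to 2 with replicates left out. The interaction had 0 calls and 0 to 4 with replicates left out. Pold1 at 4 h between nsPEF and sham was 0.000218 under spike-in scaling (adjusted p of 0.999). Over all tested probes, samples of the same replicate number and time correlated weakly in their deviations (12 pairs, r of -0.0469 to 0.0997), below what was set for pairing. Over the 45 members at 4 h r was 0.18 to 0.64, and the members' median was lower in nsPEF in 4 of 4 pairs (by -0.05 to -0.12), while at 0 and 24 h r over the members ran from -0.56 to 0.72. The study ran the tests of a replicate on the same cell suspension, but the labels do not tie the numbers to it, so pairing was not settled. A replicate block gave 20 calls in place of 16 in sham at 24 h against 0 h and left 24 in nsPEF, and a replicate block within each time point, added after the data were seen, gave 0 calls in place of 1 between nsPEF and sham at 4 h and changed no other count it was run for.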
